A study of Mus musculus with 6 samples.

Results

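Cathepsins are the main protein-degrading enzymes of the lysosome, the acidic compartment in which cells break down material taken up from outside and worn-out parts of their own. They are made as inactive precursors, tagged for delivery in the Golgi, and activated by cleavage once they reach the low pH of endosomes and lysosomes. The name covers enzymes with different active sites: *Ctsa* encodes a serine carboxypeptidase, *Ctsd* an aspartic protease, and *Ctsb*, *Ctsc*, *Ctsh*, *Ctsl*, *Ctss* and *Ctsz* cysteine proteases. In salivary gland, as in other secretory tissue, lysosomes also take up and degrade secretory granules that are not released.

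These 8 genes were named as a family by symbol and not by their values, and they were read from 47643 gene IDs listed in the count files. The samples were organoids (mSGOs) grown in Matrigel from submandibular salivary glands of female C57BL/6 mice aged 8 to 12 weeks. They had received neither irradiation nor any other treatment, and all were kept in WRY medium, which holds EGF, FGF2, insulin, dexamethasone, the ROCK inhibitor Y27632, and conditioned media with Wnt3a and R-spondin1. By the mouse numbers in the labels, each of 3 mice gave organoids for both ages, 5-day and 7-day mSGOs, hence 6 libraries in all. The libraries were made from polyadenylated RNA with a kit that reads the 3′ end of transcripts. The comparison asked how cathepsin transcripts of untreated mSGOs differed between the 2 days, and culture time is the labelled difference between the groups.

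The libraries held 1918198 to 2837397 counts in genes, and levels are given as CPM (counts divided by library size, times 1000000) scaled by the TMM method. Each transcript gives reads from its end only, so CPM were not divided by gene length and can be compared between genes as an approximate share of transcripts. Reads that the files place in no single gene made up 13.7% to 14.4% of a library at day 5 and 9.12% to 9.74% at day 7, and the part of this difference in the results was not tested. All 8 epithelial markers examined, among them *Epcam*, *Cdh1*, *Krt5* and *Krt14*, had counts in every library, with a summed level of 14434 to 18210 CPM at day 5 and 11545 to 15990 CPM at day 7. One of the 8, *Krt8*, fell (12.5% called, against 12.0% of all genes). Its log2 fold change was -0.65, with an adjusted p of 0.0374 in edgeR. The call was lost without any 1 day 5 library or without day 7 of mouse 2, at -0.73 to -0.56. Of 12 macrophage markers, 9 were at 0 in every library, including *Adgre1*, *Csf1r*, *C1qa* and *Lyz2*. The summed macrophage marker level was 0.360 to 1.65 CPM at day 5 and 3.84 to 6.85 CPM at day 7, most of it from *Cd68*, whose product is a lysosomal membrane glycoprotein. *Cd68*, the only macrophage marker tested, rose from 1.00 ± 0.645 to 5.27 ± 1.97 CPM (SD, n = 3). Its log2 fold change was 2.36, with an adjusted p of 0.0151 in edgeR. The call was lost without day 5 of mouse 2 or 3 or day 7 of mouse 2, at 1.91 to 2.37. Fibroblast markers (5 of 8 with a count) summed to 0.360 to 0.502 CPM at day 5 and 1.92 to 2.94 CPM at day 7, and endothelial markers (5 of 7 with a count) to at most 1.08 and 1.15 CPM. None of the 4 tested fibroblast markers and neither tested endothelial marker passed the test, and 1 fibroblast marker and 0 endothelial markers had an unadjusted p under 0.05 in edgeR. The part of these traces in the cathepsin levels was not tested.

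One regulatory sequence recurs among lysosomal genes, the E-box CACGTG, which in its extended form is the core of the element bound by TFEB and related factors. It is shown here because 2 of the 8 cathepsin promoters held it, those of *Ctsd* and *Ctsb*. Promoters were read from GRCm39 as the 250 bases before and 50 bases from the start of the annotated canonical transcript. This start lay inside the span of the gene for *Ctsb*, *Ctsl*, *Ctsh*, *Ctss* and, by a few bases, *Ctsa*. The 30 bases around each match are printed 5′ to 3′ on the strand of the gene, with CACGTG in capitals.
Ctsd, minus strand, chr7:141941792-141941821: tcttccttccccCACGTGacctgtatccag
Ctsb, plus strand, chr14:63359879-63359908: gcggtcaagcatCACGTGacgaatcagccc
The match in *Ctsd* lay upstream of the start, at -34 to -29, and that in *Ctsb* in the transcribed part, at 15 to 20. In *Ctsb* it was also part of the longer motif TCACGTGA. Both motifs read the same on either strand, and TCACGTGA contains CACGTG. Among 21770 promoters of protein-coding genes, 7.81% held CACGTG and 1.11% held TCACGTGA. The promoters of *Ctsa*, *Ctsc*, *Ctsh*, *Ctsl*, *Ctss* and *Ctsz* held neither, which says only that these letters are absent from the window read.

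Of the 8 cathepsins, 7 had counts in all 6 libraries and were tested, and 2 of them rose from day 5 to day 7, *Ctsa* about 2-fold and *Ctsd* about 1.7-fold. Each of these 2 calls held in 5 of 10 alternative settings with all libraries and in 1 of 6 fits without 1 library. *Ctsb* lay just under the fold threshold, *Ctsc*, *Ctsh*, *Ctsl* and *Ctsz* did not pass the test, and *Ctss* had no read. A gene was taken as changed with an adjusted p under 0.05 in the quasi-likelihood test of edgeR and a log2 fold change beyond 0.6 in either direction. Of all 15792 genes tested, 12.0% passed, 7.22% as higher and 4.82% as lower. The median log2 fold change of the 7 cathepsins was 0.37, 5 of them with a positive and 2 with a negative value, and that of all tested genes was -0.01, with 49.6% positive. At an unadjusted p under 0.05 stood 3 of the 7, all with a positive fold change, and 25.8% of all genes. In bulk RNA, a change in the share of cells that make a transcript and a change in its amount per cell cannot be told apart.

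**Figure D1:**
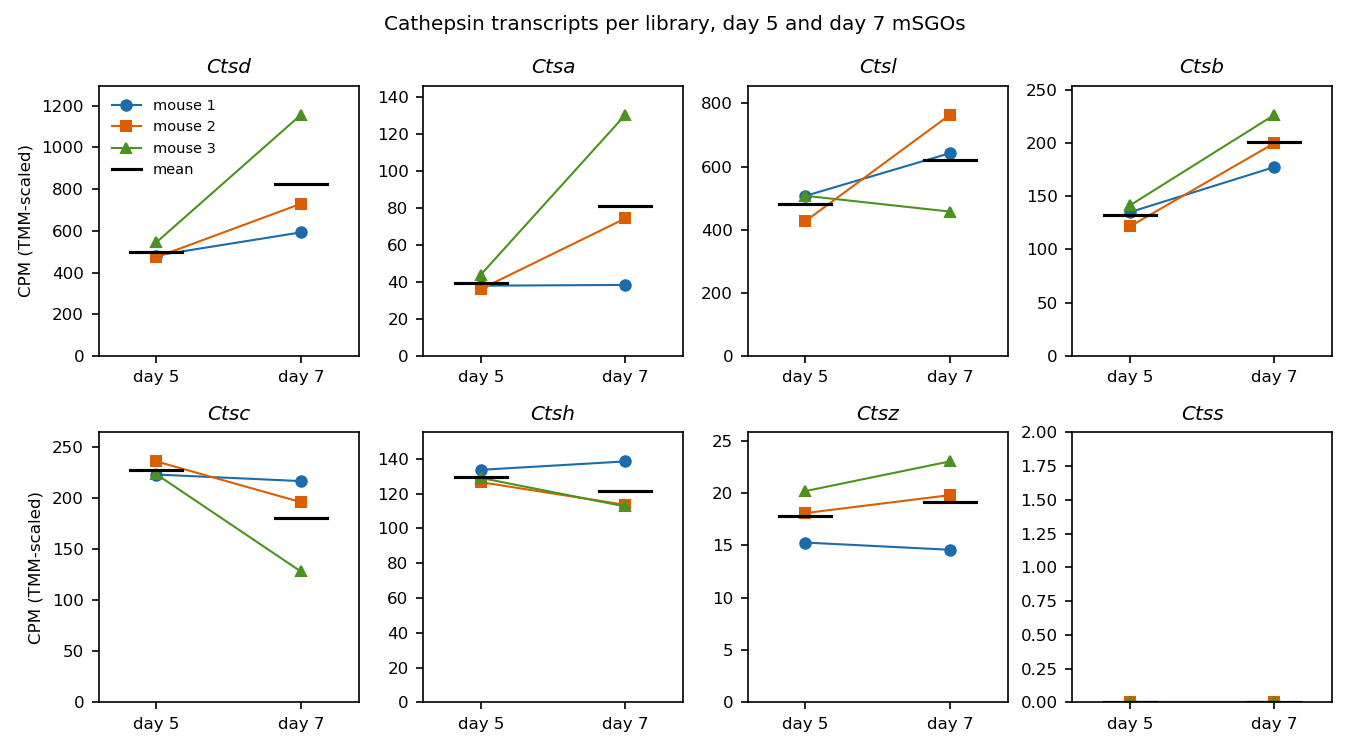
Level of each cathepsin in CPM (linear axes from 0, with a range of its own for each gene) in the 3 libraries of day 5 and the 3 of day 7, 1 symbol per mouse joined by a line, with the mean of each day as a bar. The days do not overlap for *Ctsb*, *Ctsd* and *Ctsc*, the point of mouse 3 at day 7 is the highest for *Ctsd* and *Ctsa* and the lowest for *Ctsc*, and *Ctss* has no count in any library.

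*Ctsd* encodes cathepsin D, the chief aspartic protease of lysosomes, and its mean level was the highest of the members on both days. *Ctsl* stood above it in mouse 1 at day 5 and in mice 1 and 2 at day 7. The gene (ENSMUSG00000007891) lies on the minus strand of GRCm39 at chr7:141929646-141941775, and its promoter match is printed above. Its level at day 5 was 482, 473 and 545 CPM in mice 1, 2 and 3, and at day 7 it was 593, 730 and 1156 CPM. Each day 7 library stood above every day 5 library, and mouse 3 had the highest value on both days. The mean went from 500.1 ± 39.2 to 826 ± 294 CPM (SD, n = 3 per day), a log2 fold change of 0.72 ± 0.22 (SE) with an adjusted p of 0.0425 in edgeR. Within mice the ratio of day 7 to day 5 was 1.23, 1.54 and 2.12. With the mouse as a block the log2 fold change was 0.67 and the adjusted p 0.0233. The call was lost in edgeR without any 1 of the 3 day 5 libraries, without day 7 of mouse 2 and without day 7 of mouse 3, and was kept without day 7 of mouse 1. Without mouse 3 at day 7 the log2 fold change was 0.40, with an adjusted p of 0.0652 in edgeR, and over the 6 such fits it ranged from 0.40 to 0.91.

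*Ctsa* encodes cathepsin A, a carboxypeptidase that also holds the sialidase NEU1 and the beta-galactosidase GLB1 in a protective complex. The gene (ENSMUSG00000017760) lies on the plus strand at chr2:164674778-164682961. Its level at day 5 was 37.9, 36.2 and 44.0 CPM in mice 1, 2 and 3, and at day 7 it was 38.4, 74.3 and 130 CPM. Mice 2 and 3 were higher at day 7, while mouse 1 stayed within the day 5 range, so the days overlapped. The mean was 39.4 ± 4.09 CPM at day 5 and 81.0 ± 46.3 CPM at day 7 (SD, n = 3), with a log2 fold change of 1.03 ± 0.31 (SE) and an adjusted p of 0.0384 in edgeR, the smallest of the family. The ratio within mice was 1.01, 2.06 and 2.96. Blocking on the mouse gave a log2 fold change of 0.90 and an adjusted p of 0.00339. As for *Ctsd*, the call was lost in edgeR without any 1 day 5 library and without day 7 of mouse 2 or of mouse 3, and it was kept without day 7 of mouse 1. The log2 fold change was 0.52 without mouse 3 at day 7, with an adjusted p of 0.141 in edgeR, and 1.37 without mouse 1 at day 7. Both partners that cathepsin A protects were measured. *Glb1* rose from 17.6 ± 2.26 to 35.5 ± 10.3 CPM (SD, n = 3; log2 fold change 1.00, adjusted p 0.0198 in edgeR), a call that was lost without any 1 day 5 library or without day 7 of mouse 2, at log2 fold changes of 0.91 to 1.07. *Neu1* did not pass, at 11.4 ± 2.05 and 15.9 ± 1.94 CPM (adjusted p 0.307).

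*Ctsb* encodes cathepsin B, a cysteine protease that removes dipeptides from the end of proteins as well as cutting inside them. The gene (ENSMUSG00000021939) lies on the plus strand at chr14:63358384-63383372. Its level at day 5 was 135, 122 and 141 CPM in mice 1, 2 and 3, against 177, 200 and 226 CPM at day 7. All day 7 libraries stood above all day 5 libraries, and the spread within a day was small, with means of 133 ± 10.1 and 201 ± 24.5 CPM (SD, n = 3). The ratio within mice was 1.31, 1.64 and 1.60. The adjusted p was 0.0436 in edgeR, but the log2 fold change was 0.599 ± 0.19 (SE), so the gene stayed just under the fold threshold. It passed in edgeR without day 7 of mouse 1, at a log2 fold change of 0.68 and an adjusted p of 0.0148. With the mouse as a block the adjusted p was 0.0593.

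*Ctsl* encodes cathepsin L, an endopeptidase, and was the most abundant cysteine cathepsin. The gene (ENSMUSG00000021477) is on the minus strand at chr13:64507151-64518704. Its level was 507, 427 and 507 CPM at day 5 and 642, 763 and 457 CPM at day 7 in mice 1, 2 and 3. Mice 1 and 2 were higher at day 7 and mouse 3 was lower, so the days overlapped. The means were 480 ± 46.4 and 621 ± 154 CPM (SD, n = 3), with a log2 fold change of 0.37 ± 0.21 (SE) and an adjusted p of 0.269 in edgeR. Without mouse 3 at day 7 the adjusted p was 0.0150 in edgeR, with a log2 fold change of 0.55, still under the fold threshold.

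*Ctsc* encodes cathepsin C, or dipeptidyl peptidase 1, which removes dipeptides from the start of proteins and activates the serine proteases of mast cell, neutrophil and cytotoxic lymphocyte granules. The gene (ENSMUSG00000030560) is on the plus strand at chr7:87927092-87960096. Its level was 223, 236 and 223 CPM at day 5 and 217, 196 and 128 CPM at day 7 in mice 1, 2 and 3. All 3 day 7 libraries were below the day 5 range, mouse 1 narrowly and mouse 3 widely. The means were 228 ± 7.35 and 180 ± 46.3 CPM (SD, n = 3), and the log2 fold change of -0.33 ± 0.21 (SE) did not pass, with an adjusted p of 0.326 in edgeR. The granule proteases it activates were almost unread: of 8 such genes, *Cma1* had 1 count in 1 library and the other 7, among them *Gzmb* and *Elane*, had none.

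The remaining 2 measured members differed by little between the days. *Ctsh* (ENSMUSG00000032359, plus strand, chr9:89936205-89958148), whose product acts mainly as an aminopeptidase, stood at 134, 127 and 129 CPM at day 5 and at 138, 114 and 113 CPM at day 7 (log2 fold change -0.09 ± 0.19, SE, adjusted p 0.807 in edgeR). *Ctsz* (ENSMUSG00000016256, minus strand, chr2:174267304-174280832), which encodes the carboxypeptidase cathepsin X/Z, stood at 15.3, 18.1 and 20.2 CPM and then at 14.6, 19.8 and 23.0 CPM (log2 fold change 0.09 ± 0.27, SE, adjusted p 0.879). In both genes the days overlapped, and in *Ctsz* mouse 1 was lowest and mouse 3 highest on both days. The sign for *Ctsz* turned when CPM were scaled by library totals only, with a log2 fold change of -0.000222, when all libraries were thinned to the smallest (-0.090), and without day 5 of mouse 1 (-0.015) or day 7 of mouse 3 (-0.053).

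*Ctss* encodes cathepsin S, which stays active at neutral pH and cuts the invariant chain of MHC class II in antigen-presenting cells. The gene (ENSMUSG00000038642, plus strand, chr3:95433963-95463717) had 0 counts in all 6 libraries, out of 14721832 counts in genes. A count of 0 allows up to 1.06 to 1.56 CPM in a library, counting error only. The invariant chain gene *Cd74*, *H2-Aa* and the class II activator *Ciita* were also at 0 in every library. The other 4 of the 7 genes of this pathway had low counts, of which *H2-Eb1*, *H2-DMa* and *H2-DMb1* (5 to 20 counts per day) did not pass and *H2-Ab1* did, with 0.825, 0.502 and 1.08 CPM at day 5 and 9.21, 3.12 and 1.47 CPM at day 7 (log2 fold change 2.43, adjusted p 0.0337 in edgeR). It rests on 6 counts at day 5 and 36 at day 7, and of the 6 fits without 1 library it passed only in the one without day 7 of mouse 3. The other 5 fits gave log2 fold changes of 1.47 to 2.70. *H2-Ab1* was 1 of 4 tested genes of this pathway (25% called, against 12.0% of all genes).

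Ordered by level at day 5, the members ran *Ctsd*, *Ctsl*, *Ctsc*, *Ctsb*, *Ctsh*, *Ctsa*, *Ctsz* and *Ctss*. The ranges of *Ctsd* and *Ctsl* overlapped, as did those of *Ctsb* and *Ctsh*, and the other neighbours were apart. At day 7 *Ctsb* stood before *Ctsc*, and neighbours overlapped at the top (*Ctsd* and *Ctsl*) and all the way from *Ctsb* through *Ctsc* and *Ctsh* to *Ctsa*. The spread between mice, as the coefficient of variation, was larger at day 7 than at day 5 for 7 of 7 genes, 12.1% to 57.2% against 2.79% to 13.8%. This was not particular to the cathepsins: over all tested genes the biological coefficient of variation estimated by edgeR was 0.090 at day 5 and 0.290 at day 7.

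**Figure D2:**
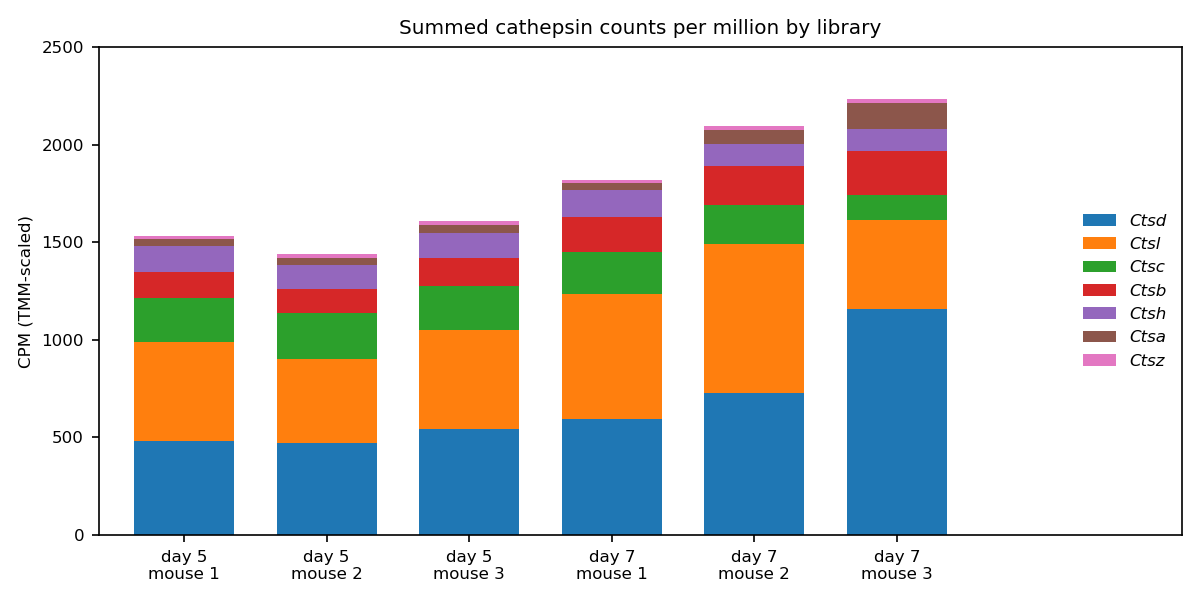
Summed level of the cathepsins in CPM in each library, stacked by gene, with the libraries of day 5 and then of day 7 in the order of mice 1, 2 and 3. The bars reach 1534, 1439 and 1610 CPM at day 5 and 1820, 2097 and 2234 CPM at day 7, and the *Ctsd* part is largest in mouse 3 at day 7.

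The summed level of the family was 1534, 1439 and 1610 CPM at day 5 in mice 1, 2 and 3 and 1820, 2097 and 2234 CPM at day 7. Every day 7 sum was above every day 5 sum, with means of 1527 ± 86.0 and 2050 ± 211 CPM (SD, n = 3). *Ctsd* and *Ctsl* together made up most of it, and their balance set 1 library apart. *Ctsd* held 31.4%, 32.9% and 33.9% of the sum at day 5 and 32.6%, 34.8% and 51.8% at day 7, whereas *Ctsl* held 33.1%, 29.7% and 31.5% and then 35.3%, 36.4% and 20.5%. In mouse 3 at day 7 the *Ctsc* share was 5.74%, against 11.9% and 9.36% in mice 1 and 2 at day 7 and 13.9% to 16.4% at day 5. The *Ctsa* share there was 5.83%, against 2.11% and 3.54% in mice 1 and 2 and 2.47% to 2.73% at day 5.

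The members moved unequally across the libraries. Within mouse 1 the ratio of day 7 to day 5 was above 1 for 5 of 7 members with a median of 1.04, within mouse 2 for 5 with a median of 1.54, and within mouse 3 for 4 with a median of 1.14. The ratios of mouse 3 were also the widest apart, from 0.574 for *Ctsc* to 2.96 for *Ctsa*, while those of mouse 1 stayed between 0.955 and 1.31. Across the 6 libraries, which share mice and culture days, log2 CPM of *Ctsa* and *Ctsd* correlated at a Pearson r of 0.97. *Ctsb* went with *Ctsa* and *Ctsd* at 0.86 and 0.92, and *Ctsz* less closely at 0.79 and 0.69. *Ctsc* stood opposite to both at -0.95 and -0.97, and *Ctsh* at -0.88 and -0.76. *Ctsl*, close to *Ctsd* in level, had an r of 0.09 with *Ctsd* and 0.06 with *Ctsa*. Among 8171 genes whose mean reached 10 CPM, those with the pattern most like *Ctsa* were *Tbcc* (r of 0.999), *Kcnq1* (0.998), *Rab3gap1* (0.995), *Mpdu1* (0.993) and *Eapp* (0.992), as a description over 6 libraries.

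**Figure D3:**
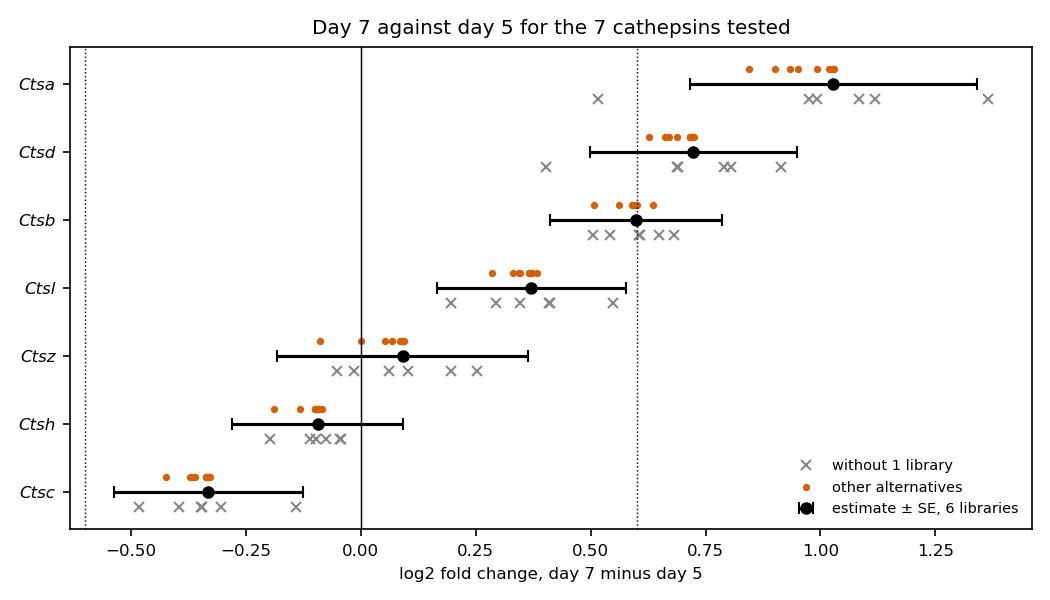
Log2 fold change of day 7 against day 5 for the 7 measured cathepsins, with the SE as bars, beside the values under other settings (dots) and without 1 library (crosses). Dotted lines mark the fold threshold. *Ctsa* and *Ctsd* lie beyond 0.6, *Ctsb* lies at the threshold, and the fits without 1 library spread most for *Ctsa*, from 0.52 to 1.37.

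Reads of a near-identical copy could be counted for the wrong gene, so the last 500 bases of the annotated transcript of each of the 8 cathepsins were compared with all others. None matched another gene over 50 bases or more at 95% identity. Exons of *Ctsa* overlap those of *Neurl2* and *Pltp* on the opposite strand, those of *Ctsb* overlap *Fdft1*, and those of *Ctsz* overlap *Nelfcd*. Exons of *Ctsd* and *Ctsl* overlap the predicted genes *Gm49369* and *Gm49230* on the same strand, and those of *Ctsl* also *Gm47123* on the opposite strand. None of these predicted genes was found by name among the genes counted, so none had counts of its own. Whether the counting used strand is not given in the sources used here, so reads of the opposite-strand pairs may not have been told apart. Strand cannot separate the same-strand pairs. The 4 named partners of *Ctsa*, *Ctsb* and *Ctsz* did not pass the test, at log2 fold changes of -0.55 for *Neurl2*, with at most 2 counts in a library, 0.41 for *Pltp*, -0.69 for *Fdft1* and 0.33 for *Nelfcd*.

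The 14 other members of the cathepsin family were nearly unread. *Ctsg*, *Ctsj*, *Ctsq*, *Ctsr*, *Cts3*, *Cts6*, *Cts7* and *Cts8*, 8 in all, had no count in any library. Of the 14, 3 were tested and 1 passed (33.3% called, against 12.0% of all genes). *Ctsf*, a cysteine cathepsin, rose from 0.412, 2.51 and 1.80 CPM at day 5 to 6.14, 6.94 and 11.3 CPM at day 7 (log2 fold change 2.34, adjusted p 0.0062 in edgeR). The days did not overlap, but the values rest on 11 and 59 counts, and without day 5 of mouse 1 the adjusted p was 0.053 at a log2 fold change of 1.89. *Ctso*, at 4.27 ± 1.64 and 3.98 ± 3.58 CPM (SD, n = 3), and *Ctsw*, at 0.120 ± 0.208 and 0.617 ± 0.762 CPM, did not pass.

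Cathepsins are held in check by cystatins, stefins and some serpins. Of 16 inhibitor genes 12 were tested, of which 3 rose and 1 fell (33.3% called, against 12.0% of all genes). *Cstdc5*, of the stefin A cluster, stood at 23.1, 32.6 and 27.0 CPM at day 5 and 568, 237 and 184 CPM at day 7 (log2 fold change 3.58, adjusted p 2.41e-06 in edgeR). Each day 7 library was several-fold above every day 5 library, but genes of this cluster are close copies of each other, so reads may have been split between them. *Cst3*, the secreted cystatin C, rose from 20.7 ± 3.31 to 43.6 ± 14.5 CPM (SD, n = 3; log2 fold change 1.07, adjusted p 0.013 in edgeR), and *Serpinb3a* from 18.1 ± 6.69 to 51.8 ± 33.1 CPM (1.54, 0.0149). *Cst6*, cystatin E/M, fell from 5.34 ± 0.596 to 1.43 ± 0.471 CPM (SD, n = 3; log2 fold change -1.83, adjusted p 0.0222 in edgeR). *Cstb*, the most abundant of the named inhibitors at day 5, did not pass, with 348, 320 and 360 CPM at day 5 and 402, 338 and 113 CPM at day 7. Its value in mouse 3 at day 7 was below all others. *Stfa3*, named after its value was seen, passed with the mouse as a block, at a log2 fold change of -1.29 and an adjusted p of 0.00608, but not without it (adjusted p 0.068).

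Of 15 genes for the sorting and maturation of lysosomal enzymes, 2 rose (13.3% called), close to the 12.0% called among all genes. *Lgmn* encodes legumain, which cleaves cathepsin precursors to their mature forms, and it went from 12.8, 8.54 and 11.2 CPM at day 5 to 20.7, 28.1 and 21.5 CPM at day 7 (log2 fold change 1.11, adjusted p 0.0138 in edgeR). *Sort1*, the sorting receptor sortilin, went from 14.9 ± 4.25 to 36.2 ± 14.6 CPM (SD, n = 3; 1.26, 0.0139). *Psap*, the precursor of the sphingolipid activator proteins, did not pass, at 92.2 ± 25.5 and 100.1 ± 48.2 CPM. *Nagpa*, which uncovers the mannose 6-phosphate tag, had a log2 fold change of -0.79 with an adjusted p of 0.0844, and with the mouse as a block it fell past the threshold, at -0.80 with an adjusted p of 0.0482. *Vps29*, a retromer subunit that takes part in returning sorting receptors, stood at 85.9 ± 10.5 and 57.3 ± 15.4 CPM and did not pass (adjusted p 0.0971).

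**Figure D4:**
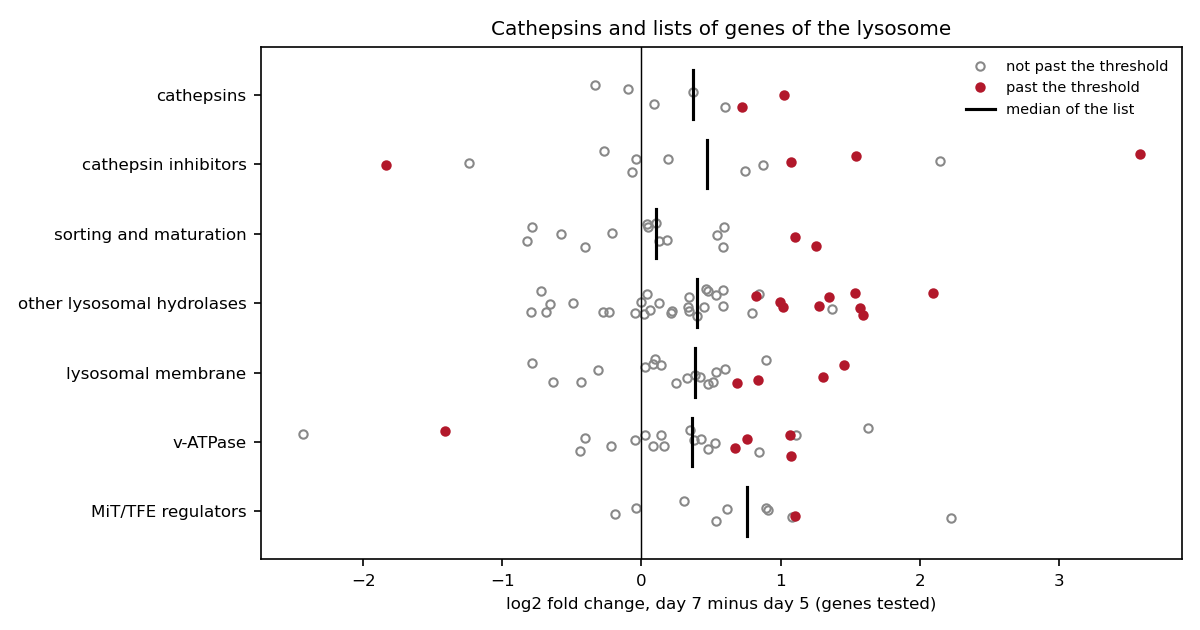
Log2 fold change of day 7 against day 5 for each tested gene of the cathepsins and of 6 lists of inhibitors, lysosomal genes and their regulators, 1 point per gene, with genes past the threshold filled and the median of each list as a line. The median is 0.37 for the 7 cathepsins and 0.40 for the 37 other lysosomal hydrolases, against -0.01 for all tested genes.

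The other proteins of the lysosome were taken in 4 lists of 95 genes in all, the sorting list included, of which 19 rose and 1 fell. That is 21.1% past the threshold, against 12.0% of all genes, and the median log2 fold change was 0.34, with 71 positive and 24 negative values. The days did not overlap for 28 genes in the higher and 12 in the lower direction, against 15.4% and 15.5% of all genes, and among the cathepsins for *Ctsb* and *Ctsd* in the higher and *Ctsc* in the lower direction. The fit blocked on the mouse called 22 of these 95 genes higher and 2 lower. Calls over all 15792 tested genes grew in that fit too, from 1901 to 2340. The genes were chosen with results of these data known, so these counts are a description.

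Of 37 other lysosomal hydrolases, 9 rose (24.3% called, against 12.0% of all genes). *Hexa*, which trims gangliosides, went from 7.01, 5.02 and 4.68 CPM at day 5 to 11.1, 19.1 and 20.6 CPM at day 7 (log2 fold change 1.59, adjusted p 0.00504 in edgeR). All day 7 libraries stood above all day 5 libraries. Other enzymes of sphingolipid breakdown stood beside it, with log2 fold changes of 1.53 for *Smpd1*, which splits sphingomyelin, and 1.57 for *Galc*, which removes galactose from galactosylceramide (adjusted p 0.00545 and 0.0115 in edgeR).

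Of 21 lysosomal membrane and cholesterol export genes, 4 rose (19.0% called, against 12.0% of all genes). *Npc2*, which carries cholesterol inside the lysosome, went from 133, 147 and 160 CPM at day 5 to 289, 343 and 455 CPM at day 7 (log2 fold change 1.30, adjusted p 0.000364 in edgeR). Its days were far apart, and mouse 3 was highest on both days. *Ctns*, the cystine exporter, *Lamp2*, a major lysosomal membrane glycoprotein, and *Laptm4b* followed with log2 fold changes of 1.46, 0.69 and 0.84 (adjusted p 0.0101, 0.0181 and 0.0272 in edgeR). *Lamp1*, the companion of *Lamp2*, did not pass, with 255, 272 and 297 CPM at day 5 and 338, 336 and 522 CPM at day 7 (log2 fold change 0.54, adjusted p 0.0972).

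Most cathepsins work best at the acid pH that the v-ATPase proton pump provides. Of its 22 genes 4 rose and 1 fell (22.7% called, against 12.0% of all genes). *Atp6v0d1*, a subunit of the membrane part, went from 26.4, 24.6 and 26.3 CPM at day 5 to 44.9, 57.6 and 60.7 CPM at day 7 (log2 fold change 1.07, adjusted p 0.00372 in edgeR). The accessory subunit *Atp6ap1* and the *Atp6v1e1* subunit rose as well, at log2 fold changes of 1.07 and 0.76 (adjusted p 0.00662 and 0.0139 in edgeR). *Atp6v1c2*, a tissue-restricted form of the C subunit, went the other way, from 22.3, 23.1 and 29.9 CPM to 8.82, 5.90 and 14.2 CPM (log2 fold change -1.41, adjusted p 0.00614).

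TFEB, TFE3 and MITF switch on lysosomal genes when they are freed from control by the Rag GTPases and folliculin complexes. Of 12 genes of this circuit 10 were tested and 1 rose (10.0%, against 12.0% of all genes). It was *Fnip1*, a partner of folliculin, from 31.8 ± 1.97 to 68.3 ± 25.4 CPM (SD, n = 3; log2 fold change 1.11, adjusted p 0.00674 in edgeR). The 10 had a median log2 fold change of 0.76, with 8 positive and 2 negative values, against -0.01 for all tested genes. At an unadjusted p under 0.05 in edgeR stood 5 of them, against 25.8% of all genes. *Tfeb* stood at 4.12, 6.53 and 3.60 CPM at day 5 and at 6.90, 10.8 and 12.2 CPM at day 7, without overlap. Its log2 fold change of 1.08 had an adjusted p of 0.0745 in edgeR, and with the mouse as a block it passed, at 1.07 with an adjusted p of 0.0412. *Tfe3*, the most abundant of the 3 factors, stood at 43.9 ± 5.72 and 54.7 ± 19.3 CPM, and *Mitf* at 3.38 ± 0.578 and 6.18 ± 2.90 CPM (SD, n = 3; adjusted p 0.46 and 0.22 in edgeR). *Fnip2* and *Rragc* had log2 fold changes of 0.91 and 0.53 and did not pass either.

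The motif printed above was also looked for in the promoters of the 95 lysosomal genes. CACGTG was found in 24 of 95 (25.3%), against 9.76% of the promoters of 12974 tested protein-coding genes, and TCACGTGA in 12 of 95 (12.6%), against 1.63%. Of the 20 past the threshold 3 held CACGTG, among them *Glb1*, and of the 75 others 21 did. Among the cathepsins it was found in *Ctsd*, which rose, and in *Ctsb*, at the threshold, but not in *Ctsa*, which rose as well.

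Few of these calls held with every library left out in turn. The number of calls over all genes moved as well, from 1901 with 6 libraries. It was 892, 797 and 890 without day 5 of mice 1, 2 and 3. Without day 7 of mice 1, 2 and 3 it was 2472, 1045 and 2576. Of the genes named from the lists, *Cstdc5*, *Npc2* and *Atp6v0d1* were past the threshold in all 6 fits without 1 library, though without day 7 of mouse 1 the log2 fold change of *Cstdc5* was 2.94. *Hexa* lost its call without day 5 of mouse 3 (log2 fold change 1.47) and *Smpd1* without day 5 of mouse 2 (1.42). *Ctns* and *Atp6ap1* lost it without day 5 of mouse 1 or 2 (1.33 and 1.03 at the lowest), *Fnip1* without mouse 2 on either day (1.06 and 0.75) and *Atp6v1c2* without day 5 of mouse 3 or day 7 of mouse 2 (-1.26 and -1.14). *Cst3*, *Cst6*, *Lamp2* and *Atp6v1e1* lost it without any 1 day 5 library and without day 7 of mouse 2, at log2 fold changes of 0.80 to 1.17, -1.89 to -1.75, 0.64 to 0.71 and 0.62 to 0.79. *Serpinb3a* lost it without day 5 of mouse 1 or 3 or day 7 of mouse 1 or 2 (1.03 to 1.52), and *Laptm4b* in every such fit but the one without day 7 of mouse 1 (0.51 to 0.90). *Lgmn* and *Galc* lost it without day 5 of mouse 2 or 3 or day 7 of mouse 2 (0.95 to 1.13 and 1.36 to 1.43), and *Sort1* without day 5 of mouse 1 or 2 or day 7 of mouse 2 (1.13 to 1.16). Direction was the same in every one of these fits.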

How the data were processed

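Organoids of 3 mice, by the numbers in the labels, were measured on both days by 3′-end RNA-seq. The authors deposited whole-number read counts per Ensembl gene ID, not normalised, from reads aligned to GRCm39. The aligner, annotation release and strand setting are not given in the sources used here. The 5 closing entries of each file that name no gene (9.12% to 14.4% of reads) were left out. GENCODE vM39 named 43465 of 47643 IDs (91.2%).

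The filter kept genes seen in 2 or more libraries (minimum 1 count each). Day 7 was set against day 5 in edgeR 4.0.16 under R 4.3.3 with its quasi-likelihood F test, two-sided, with TMM scaling and no covariate. The Benjamini-Hochberg adjustment ran over 15792 genes, and both thresholds (0.05 for the adjusted p, 0.6 for the log2 fold change in either direction) follow the study. The script was tested on simulated data with the same spread in every library. The measured spread was larger at day 7 than at day 5, which that test did not cover. CPM are counts over the TMM-scaled library size. Correlations used log2 CPM with a prior count of 2.

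The cathepsins, the 13 other gene lists and the tests were chosen with earlier results of these data known. Named genes are the 8 cathepsins, up to 4 genes with the smallest p in each list, and genes whose products act on or beside a cathepsin. *Stfa3*, *Pla2g15*, *Tpcn1*, *Atp6v0a1* and single markers at 0 were named after their values were seen. Single list genes that the rule would name are not reported here.

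Equal mouse numbers in the labels were taken to mark the same animal, so the numbers pair the libraries. Deviations of such libraries from the day mean correlated at 0.14, -0.10 and 0.16 over 8172 genes. The fit blocked on the mouse stands beside the members it concerns. Libraries of a day differed by more than sampling noise (smallest chi-square per degree of freedom within a day 1.99). A count of 0 allows 3 counts, counting error only. Alternatives were DESeq2 1.42.0 size factors and Wald test, upper-quartile or total scaling, no filter, filterByExpr, robust = TRUE, limma voom 3.58.1, thinning to the smallest library, and leaving out each library. Promoters were read from GRCm39, and 3′ ends were compared with BLAST 2.17.0. Protein sequences were not used here.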

Additional observations from a re-analysis of the deposited data

How the results depend on the processing

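The 2 calls among the cathepsins, *Ctsa* and *Ctsd*, stood close to the threshold. There were 2 cathepsins past it with DESeq2 size factors, without a filter, with the mouse as a block, and in the DESeq2 Wald test. The count was 1 with upper-quartile factors (*Ctsa*), with robust = TRUE (*Ctsd*), and with filterByExpr or thinned counts (*Ctsb*), and 0 with library totals only and with limma voom. Over these alternatives the adjusted p ranged from 0.000272 to 0.147 for *Ctsa* and from 0.0049 to 0.0747 for *Ctsd*. Without 1 library the count ranged from 0 to 3. It was 3 without day 7 of mouse 1 and 0 in the other 5 fits.

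Of the 95 other lysosomal genes, 20 passed, against 13 with thinned counts, 24 with the mouse as a block, and 6 to 28 without 1 library (8, 6 and 8 without day 5 of mice 1, 2 and 3, then 28, 7 and 22 without day 7). Over all genes 1901 passed, 1140 higher and 761 lower, with 2340 under the block and 797 to 2576 without 1 library. Library totals only gave 950 higher and 1008 lower and moved the median log2 fold change of all genes from -0.01 to -0.10. *Ctsz*, at 0.09 and not past the threshold, took the opposite sign with library totals (-0.000222) and with thinned counts (-0.090), and ranged from -0.053 to 0.25 without 1 library, with a negative sign without day 5 of mouse 1 and without day 7 of mouse 3. The causes were not tested. Among the named cathepsins, 85 of 112 values kept direction and side of the threshold, most of them from genes not called in the main fit. Of the rest, 20 lost a call, all of *Ctsa* or *Ctsd*, 3 gained one, all of *Ctsb*, and 4 changed sign, all of *Ctsz*. *Ctsa* and *Ctsd* each kept the call in 5 of 10 alternatives with all libraries and in 1 of 6 fits without 1 library. The 3 mice per day limit the precision of every comparison. Among the genes of all lists, the mouse as a block added calls for *Stfa3*, *Nagpa*, *Pla2g15*, *Tpcn1*, *Atp6v0a1* and *Tfeb* and changed no other call.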
